A study of Homo sapiens with 8 samples.

Results

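Matrix metalloproteinase genes encode zinc-dependent proteases of the extracellular matrix, and 10 of them (MMP1, MMP2, MMP3, MMP7, MMP9, MMP10, MMP13, MMP14, MMP16 and MMP24) were followed here, chosen by name from 19974 protein-coding genes on chromosomes 1 to 22 and X. For each gene, H3K4me1 peaks were counted over its RefSeq record with 5000 bases on either side, and the chromosome 11 span from MMP7 to MMP13 was also taken whole. H3K4me1, monomethylation of histone H3 at lysine 4, was profiled by ChIP-seq (sequencing of immunoprecipitated chromatin) in MDA-MB-231, an established triple-negative breast cancer line of mesenchymal character. Control cells were set against cells carrying an ARID1A knockout. ARID1A is a DNA-binding subunit of a SWI/SNF chromatin remodelling complex. The 8 samples were 2 immunoprecipitates and 2 inputs of each genotype, with no further treatment in the labels, which do not say whether the knockout cells were a clone or a pool. The antibody label and the titles name H3K4me1, whereas the protocol text names H3K4me3 for the same catalogue product. The deposited data were 1 peak list per genotype, so no spread between replicates was available, and each difference below describes those lists without a test.

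H3K4me1 marks enhancers and the flanks of active promoters. The width and strength of a called peak depend on the peak calling as well as on the mark, so neither counts marked nucleosomes. Matrix metalloproteinases are made as inactive pro-enzymes, are activated by cleavage, and are held in check by the TIMP proteins. Members fall into gelatinases, membrane-type enzymes, collagenases, stromelysins and matrilysins, and many of those on chromosome 11 are textbook targets of the AP-1 transcription factor through a site just before the transcription start.

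The control list held 82994 peaks and the knockout list 73600 on the chromosomes used, and read depth is unknown. Control peaks were narrower, with a median width of 1386 bases against 1587 for knockout peaks, and their shortest was 312 against 361 bases. The smallest gap between neighbouring peaks was also shorter, at 1249 against 1445 bases. These limits differ as they would if the peak caller had used another fragment length for each list, so that a peak's width and the covered bases do not mean quite the same in both. With the same merging distance and shortest peak in both lists the differences at MMP2, MMP9 and MMP14 given below stayed as they were. At MMP9 that setting could not join the control peaks at the lower record end, since the 1471 bases between them exceed its 1444 bases. Nor does it undo a longer fragment, whose part in wider knockout peaks was not tested. At ARID1A, 44673 control and 39191 knockout bases lay in peaks, which does not check the knockout because the mark does not report the gene product. Peaks of both lists lay at all 5 mesenchymal genes examined (VIM, CD44, AXL, CAV1 and MSN) but also at all 5 luminal ones, so the lists do not check the cell line's label. The input background implied by the lists within 2500000 bases of each of the 10 genes had a knockout to control ratio between 0.97 and 1.032 times the genome-wide one.

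Promoter sequences, from 250 bases before to 50 bases after the transcription start, were found for 4 of the 10 genes and come from RefSeq on GRCh38.p14. All that were found are shown. MMP7 and MMP10 had no peak in their windows, MMP14 had a peak of each list just before the start, and MMP24 had a peak at the start in the control list alone. Capitals mark TGANTCA, looser than the AP-1 consensus in that its middle base is free, and GGGCGG, the GC box bound by Sp1. Each was searched on both strands. TGANTCA is its own reverse complement, so each of its sites matched on both strands and is counted once. No marked site overlaps another.

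MMP7 (chr11:102530698-102530997, minus strand): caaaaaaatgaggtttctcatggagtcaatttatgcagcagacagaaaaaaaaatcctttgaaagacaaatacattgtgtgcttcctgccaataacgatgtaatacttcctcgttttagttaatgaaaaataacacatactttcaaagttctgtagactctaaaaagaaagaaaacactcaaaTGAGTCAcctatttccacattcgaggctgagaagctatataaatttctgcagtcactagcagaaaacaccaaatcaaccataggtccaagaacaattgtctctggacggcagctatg

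MMP10 (chr11:102780579-102780878, minus strand): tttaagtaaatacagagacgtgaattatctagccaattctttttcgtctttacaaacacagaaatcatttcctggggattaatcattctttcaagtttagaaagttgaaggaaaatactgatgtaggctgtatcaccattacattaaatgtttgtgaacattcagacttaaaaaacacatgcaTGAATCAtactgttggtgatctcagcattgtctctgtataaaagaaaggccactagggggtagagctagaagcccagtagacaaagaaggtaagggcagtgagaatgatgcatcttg

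MMP14 (chr14:22836335-22836634, plus strand): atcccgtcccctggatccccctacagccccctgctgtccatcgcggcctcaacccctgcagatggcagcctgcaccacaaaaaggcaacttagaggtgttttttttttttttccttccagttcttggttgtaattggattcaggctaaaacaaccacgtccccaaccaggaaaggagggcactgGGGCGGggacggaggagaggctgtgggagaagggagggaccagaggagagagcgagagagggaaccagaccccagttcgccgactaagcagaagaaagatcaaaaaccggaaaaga

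MMP24 (chr20:35226440-35226739, plus strand): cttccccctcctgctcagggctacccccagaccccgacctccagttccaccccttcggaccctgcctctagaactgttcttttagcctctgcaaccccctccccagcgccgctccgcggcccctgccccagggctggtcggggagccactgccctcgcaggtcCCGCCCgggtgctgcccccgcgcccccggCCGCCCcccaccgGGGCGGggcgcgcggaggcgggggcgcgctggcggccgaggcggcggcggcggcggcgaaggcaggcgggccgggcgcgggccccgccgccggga

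TGANTCA occurred once in the promoter of MMP7 and once in that of MMP10, in each case starting 67 bases before the transcription start, as TGAGTCA in MMP7 and TGAATCA in MMP10. It occurred in neither the MMP14 nor the MMP24 window, and 6.15% of 22132 protein-coding promoters of this length held it. GGGCGG occurred once in MMP14 and 3 times in MMP24, and 56.3% of promoters held it. The MMP7 and MMP10 windows were 35.7% and 36.3% G and C, MMP14 was 55.0% and MMP24 was 80.0%, against a median of 62.3% over all promoters. Of the 4 windows only that of MMP24 overlapped a peak, with 169 of its 300 bases in a control peak and none in a knockout peak. Over all promoters, 17.5% overlapped a control peak and 25.7% a knockout peak. At MMP14 the nearest peaks ended 74 bases (control) and 177 bases (knockout) short of the window, and at MMP7 and MMP10 no peak lay within 10000 bases of it.

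The design set ARID1A knockout cells against control cells, and the question here was how H3K4me1 at these genes differed. A gene counted as higher or lower when its covered bases differed between genotypes by 1000 or more. MMP14, MMP2, MMP9 and MMP16 were more covered in the knockout list, MMP24 and MMP1 were less covered, and MMP3, MMP13, MMP7 and MMP10 differed by less. Thus 4 of 10 were higher, where 20.2% of all protein-coding genes were, and 2 of 10 were lower, where 30.0% of all genes were. The median difference was 287 bases over the 10 genes and 0 bases over all genes. It was 512.5 over the record alone (all genes 0), -166 with 10000 bases on either side (-44.5) and -1290.5 with 50000 (-635). It was 0 with the same merging distance and shortest peak in both lists (-27) and with the 50000 strongest peaks of each list (0). With only peaks of −log10 q (the authors' significance of a peak over the input, after correction for multiple testing) 5 or more, 1 of 10 was lower (17.7% of all genes). The median difference was then 155 bases (all genes 0). With only peaks of fold 4 or more the number was also 1 (19.4% of all genes), with a median difference of 0 bases. It was 1 again with a limit of 2000 bases (18.7%) and outside other protein-coding records (26.9%). That gene was MMP24 with the −log10 q cutoff (-7002 bases) and with the limit of 2000 bases (-7832). It was MMP3 with the fold cutoff (-1431), where MMP24 stood at 456. Outside other records it was MMP1 (-1176), where MMP24 stood at -112. With 50000 bases on either side 5 were lower (46.0% of all genes), namely MMP1, MMP3, MMP10, MMP13 and MMP24. The windows of MMP1, MMP3 and MMP10 overlap there, so the same peaks count for several genes. The control peak at 102829671 to 102830885 on chromosome 11, for example, counts for all of these neighbours. Over the record alone 2 of the 10 genes were higher (14.9%).

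Median coverage was 3571.5 control and 3406 knockout bases over the 10 genes, against 3954.5 and 3686 over all genes.

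**Figure D1:**
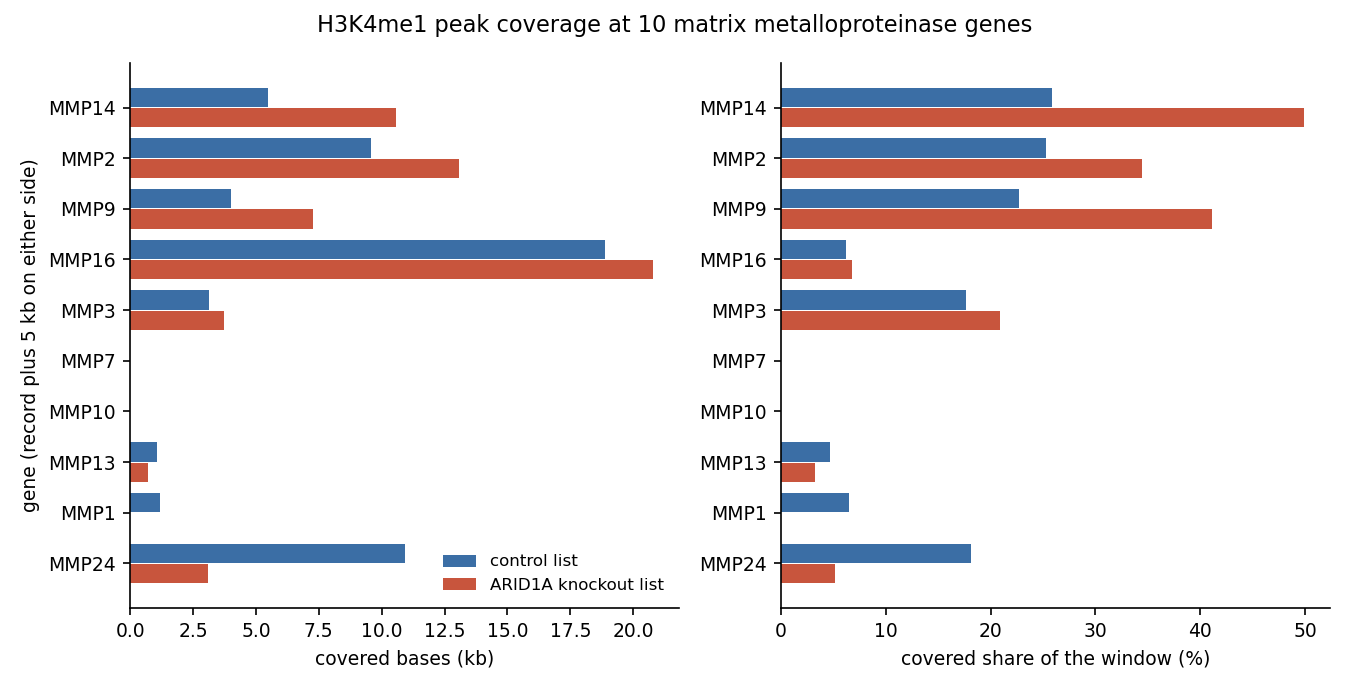
Bases covered by H3K4me1 peaks (left, kb) and the same as a percent of the counted window (right) at each of the 10 genes, in the control list (blue) and the ARID1A knockout list (red), ordered by difference; there is 1 list per genotype, so there are no error bars. MMP14, MMP2 and MMP9 have the longer knockout bars, MMP24 the longer control bar, and MMP7 and MMP10 have none.

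Per length, MMP14 was the most covered of the 10 in both lists, with 25.87% of its window in control peaks and 49.87% in knockout peaks. MMP2 (25.25% and 34.49%) and MMP9 (22.68% and 41.11%) came next and changed places between the lists. MMP24 held 18.12% and 5.14% and MMP3 17.63% and 20.85%. MMP1 (6.45% and 0), MMP16 (6.19% and 6.80%) and MMP13 (4.65% and 3.19%) were sparsely covered, and MMP7 and MMP10 were at 0 in both. Medians over all genes were 9.39% (control) and 8.73% (knockout). Without replicates no neighbours in this order can be told apart by their spread.

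The gelatinase genes MMP2 and MMP9, whose products cut type IV collagen of basement membranes, were both more covered in the knockout list. MMP2 (chromosome 16, 55478830 to 55506691) had 5 control peaks covering 9562 bases and 6 knockout peaks covering 13057 bases. Every peak of either list had an overlapping partner, and 9082 bases were common to both lists. Each knockout peak was wider than its control partner. The widest peak inside the record was called from 55499043 to 55503873 in control cells and from 55499110 to 55504038 in knockout cells, nearly the same stretch. A second pair lay near the lower end of the record, where MMP2 transcription starts, at 55480097 to 55482190 (control) and 55479961 to 55482451 (knockout). Peak strength is the authors' value and, apart from the cutoffs on −log10 q and fold, is read here only as a rank inside each list. That second peak was stronger than 58.7% of control peaks (−log10 q 3.82) and than 88.8% of knockout peaks (9.74). The strongest knockout peak near MMP2, at 55469486 to 55474063 with a −log10 q of 17.67, reached only 234 bases into the window. Its control partner (55469776 to 55473370, 11.08) stopped 5460 bases from the record, just outside the window.

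MMP9 (chromosome 20, 46008908 to 46016561) had 3 peaks in each list, covering 4004 control and 7257 knockout bases. The control list held separate peaks at 46004317 to 46006058 and at 46007530 to 46009352, the latter across the lower record end, where MMP9 transcription starts. In the knockout list a single peak from 46003880 to 46009464 (−log10 q 11.1) ran through both. The 1471 bases between the control peaks were thus called in the knockout list alone. The smallest gap in the knockout list was 1445 bases, so a shorter unmarked stretch there would not show as a gap. Whether the knockout peak bridges such a stretch was not tested. A weak peak inside the record had partners in both lists, and a weak knockout peak (−log10 q 2.3) at 46020887 to 46022266, overlapping the neighbouring gene SLC12A5, had none. Counted over the record alone, MMP9 had 884 control and 1582 knockout bases, so most of the difference lay outside the record. Among peaks of fold 4 or more neither list covered a base of the window. The wide knockout peak, with a fold of 3.99, fell just below that cutoff, and its control partners stood at 3.21 and 3.79.

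Among the membrane-type genes, MMP14 and MMP16 were more covered in the knockout list and MMP24 less. MMP14 encodes the cell surface enzyme that activates pro-MMP2 and cuts fibrillar collagen. At its locus (chromosome 14, 22836585 to 22847758), 4 peaks of each list covered 5477 control and 10560 knockout bases, of which 4902 were common. The largest gain was at the upper end of the record, where the control peak (22850114 to 22853483) lay wholly beyond the gene and the knockout peak (22846590 to 22853354) began 3524 bases lower, inside it. The control peak was the stronger of the pair within its list, above 98.7% of control peaks with a −log10 q of 15.95, while the knockout peak stood above 92.5% of its list with 11.21. Inside the record both lists held a peak beginning about as far from the start, at 22838277 (control) and 22838313 (knockout). The peak before the gene, which also overlaps MRPL52, a mitochondrial ribosome gene, was 2797 bases wide as called in control cells and 5117 in knockout cells. Of these, 213 control and 2085 knockout bases lay in the window. With bases inside other protein-coding records left out, MMP14 kept 5264 control and 8475 knockout bases. Over the record alone the difference was 697 bases, below the 1000 used for a call.

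MMP16, which encodes a membrane-type enzyme that also activates pro-MMP2, has the longest record of the 10 (chromosome 8, 88032011 to 88327483). It held 9 control peaks covering 18900 bases and 7 knockout peaks covering 20776 bases, all inside the record. The 4 strongest peaks of each list lay between 88237307 and 88300738, and each had a partner. The widest was called at 88238399 to 88244185 in control cells (−log10 q 5.64) and at 88237307 to 88244564 in knockout cells (10.61). Partners were missing for 3 control peaks and 2 knockout peaks, whose −log10 q did not exceed 2.87. Of the covered bases 14343 were common, and the difference was 1876 bases. It was 5653 bases among peaks of −log10 q 5 or more, 7258 among peaks of fold 4 or more, where only the widest knockout peak remained, and 252 with 50000 bases on either side.

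MMP24, which encodes a membrane-type enzyme known mainly from neural tissue, had the greatest difference of the 10. Its window (record at chromosome 20, 35226690 to 35276998) held 4 control peaks covering 10931 bases and 2 knockout peaks covering 3099 bases. Within the window no knockout base lay outside the control peaks. The upper knockout peak, of 4084 bases, had only 100 bases in the window and ran on past the end of the control peak. Ranked from the bottom, the MMP24 difference of -7832 bases was number 578 of 19974 genes. The peak at 35262908 to 35265450, inside the record, had a −log10 q of 14.47 and stood above 98.0% of control peaks, yet the nearest knockout peak was 10345 bases away. A weak control peak (3.38) at 35226164 to 35226608 overlapped the promoter shown above, and its nearest knockout peak was 9468 bases away. At the upper end of the record a control peak of 9458 bases (35274441 to 35283898) faced 2 knockout peaks, 35275795 to 35278793 and 35281899 to 35285982, with 3105 bases between them. Records of MMP24OS and EIF6 lie at that end, and the read-through record MMP24-AS1-EDEM2 spans the whole of MMP24. Outside other protein-coding records MMP24 had 783 control and 671 knockout bases, so MMP24 and the genes that overlap it cannot be told apart as the site of the difference. Among peaks of fold 4 or more the direction turned, with 2543 control and 2999 knockout bases.

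**Figure D2:**
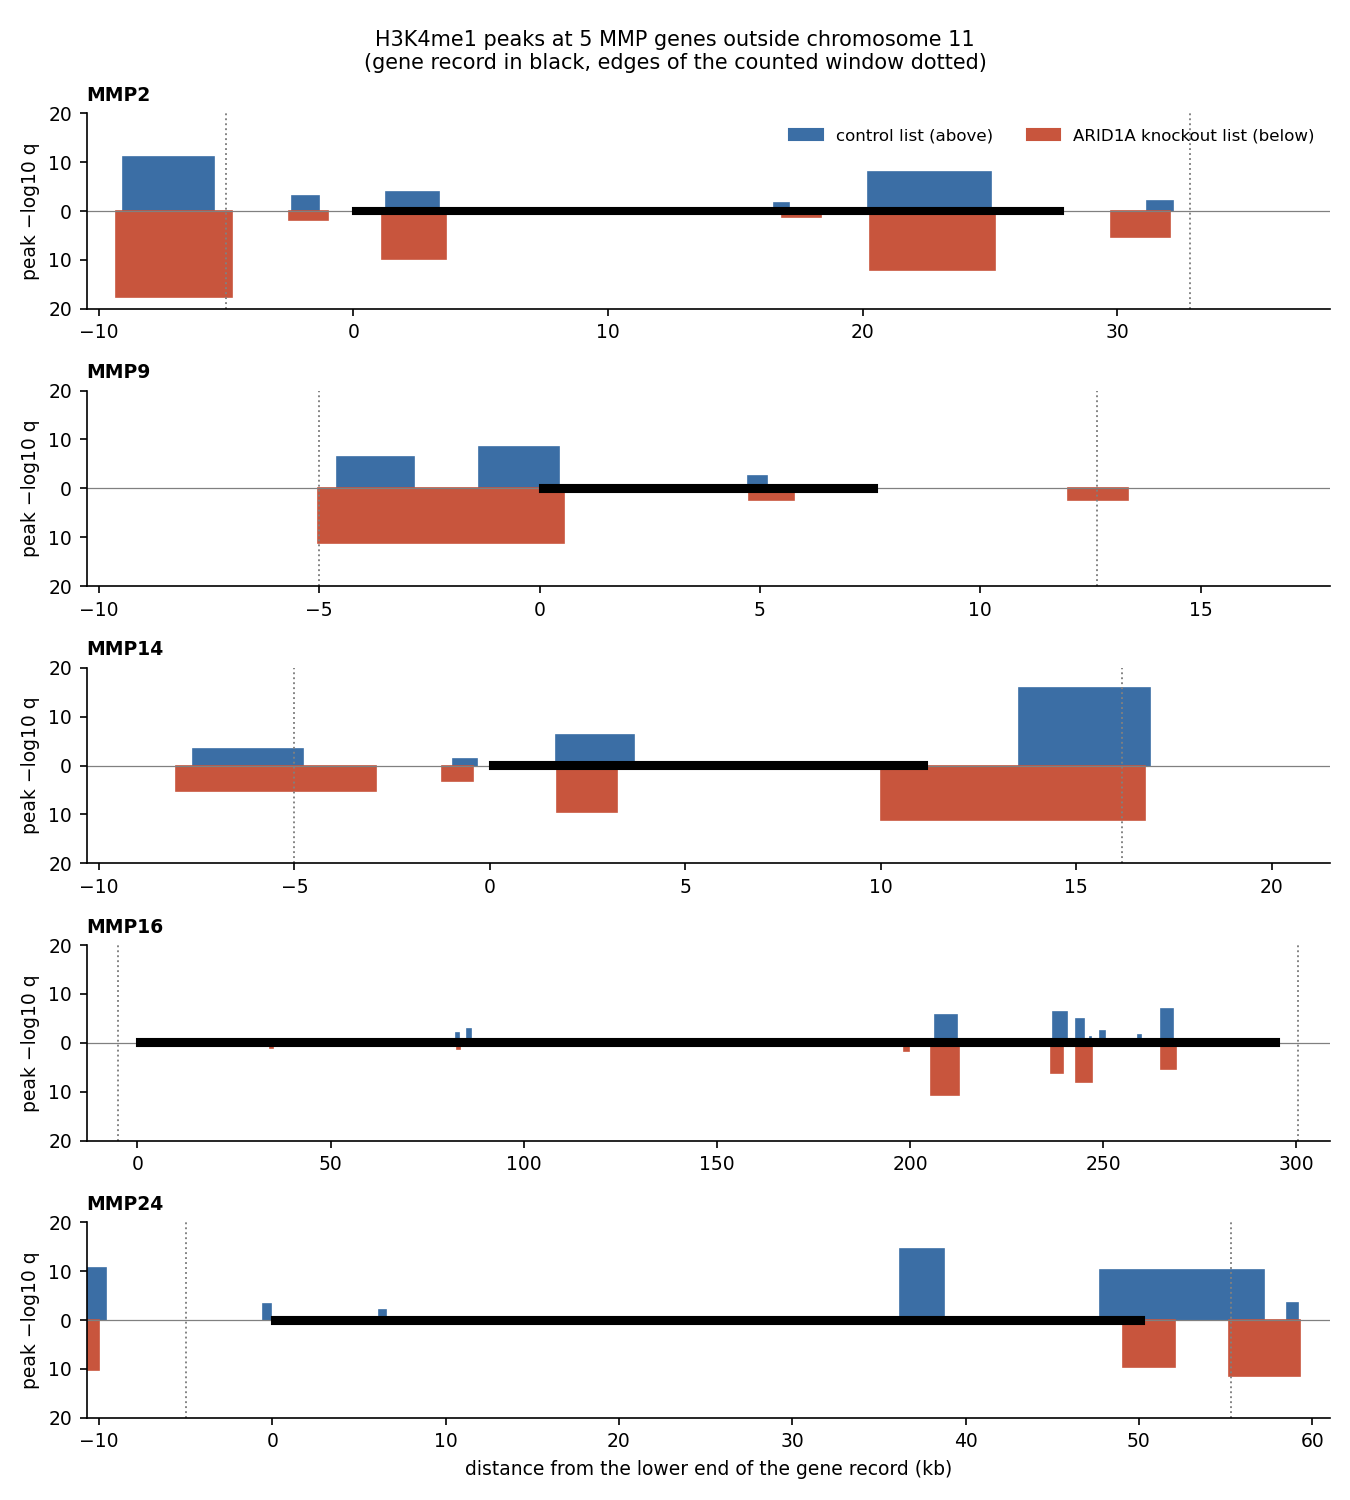
H3K4me1 peaks at the 5 genes outside chromosome 11, by distance from the lower end of the gene record (kb); each rectangle is a peak, its height is the authors' −log10 q, with control above and ARID1A knockout below the line, the gene record in black and the edges of the counted window dotted. Knockout peaks are wider before MMP9 and at the upper end of MMP14, and the MMP24 peak of −log10 q 14.47 has no knockout partner.

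The collagenase genes MMP1 and MMP13, whose products cleave fibrillar collagen, carried few peaks. MMP1 (chromosome 11, 102789919 to 102798160) had 2 control peaks inside the record, 545 and 631 bases wide, and the nearest knockout peak was 26338 bases away. Both were weak, with −log10 q of 1.77 and 1.79, above 20.7% and 21.2% of control peaks. Coverage was 1176 control and 0 knockout bases, and it was 0 for both genotypes among peaks of −log10 q 5 or more. MMP13 (102942995 to 102955732) had 1 peak in each list, at different places. The control peak (102940438 to 102941494, −log10 q 4.03) lay 1501 bases below the record, and the knockout peak (102955405 to 102956129, 1.86) crossed the upper record end, where transcription starts on the reverse strand. The peaks were 13911 bases apart. Over the record alone the difference at MMP13 turned from -332 to 328 bases.

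The stromelysin genes MMP3 and MMP10 encode closely related proteases of broad substrate range that also activate other pro-enzymes. MMP3 (102835801 to 102843609) had 3 peaks in each list, covering 3139 control and 3713 knockout bases, of which 2585 were common. A peak across its upper record end, where MMP3 starts, was called at 102842828 to 102844258 in control cells (−log10 q 8.53) and at 102842767 to 102844507 in knockout cells (6.58). A second peak beyond that end was also common, at 102845620 to 102847242 and 102846049 to 102847202. The direction at MMP3 turned in 5 of 8 settings: with 10000 (-1189 bases) or 50000 bases (-2365) on either side, among peaks of fold 4 or more (-1431), with the same merging distance and shortest peak (-787) and with 50000 peaks per list (-159). MMP10 (102770502 to 102780628) had no peak in its window in either list. The strongest control peak of the chromosome 11 span (102757933 to 102764209, −log10 q 16.63) ended 6293 bases below its record, and the overlapping knockout peak (102757913 to 102763581, 9.46) 6921 bases below it. MMP7 (102520508 to 102530747), the matrilysin gene, whose product is made by glandular epithelia, likewise had no peak. The nearest were 21129 bases (control) and 20798 bases (knockout) away. Thus 2 of the 10 genes had no peak of either list, as had 15.8% of all protein-coding genes.

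The chromosome 11 span from MMP7 to MMP13 (102520508 to 102955732) is 435225 bases long and holds 9 protein-coding records, all of the MMP family, 5 of them among the 10 genes. The control list had 17 peaks there covering 33450 bases (7.69%), and the knockout list 11 peaks covering 29947 bases (6.88%). Both lists covered 23687 bases in common, or 70.8% of the control and 79.1% of the knockout bases. Between the gene records lay 66.0% of control and 63.4% of knockout covered bases. Records and the stretches between them were covered to a like extent, at 8.28% and 7.41% by control peaks and at 7.98% and 6.37% by knockout peaks.

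Most of this coverage sat in 4 places that both lists shared. The first was a group between MMP7 and MMP20, where control peaks of 1640, 1903 and 1566 bases faced knockout peaks of 3337 and 5366 bases. The second lay inside MMP20, the enamelysin gene of tooth enamel, at 102598353 to 102605463 (control, −log10 q 13.11) and 102597774 to 102605298 (knockout, 12.19). The third was the peak below MMP10 already described, which stood above 98.9% of control peaks and 88.0% of knockout peaks. The fourth was the group at and beyond the start of MMP3. From MMP20 to the peak below MMP10, a stretch that holds MMP27 and MMP8, the knockout list had none and the control list a single weak peak (102727758 to 102728905, 2.55) near MMP8, the neutrophil collagenase gene. MMP27 and MMP12, the macrophage elastase gene, had no peak in their windows in either list. Peaks with no overlap numbered 8 of 17 for control (28.2% of the whole list) and 3 of 11 for knockout (21.3%), and none exceeded a −log10 q of 4.03. Knockout minus control was -3503 bases over the whole span, but 7253 bases when only peaks of −log10 q 5 or more were kept (16385 control and 23638 knockout bases).

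**Figure D3:**
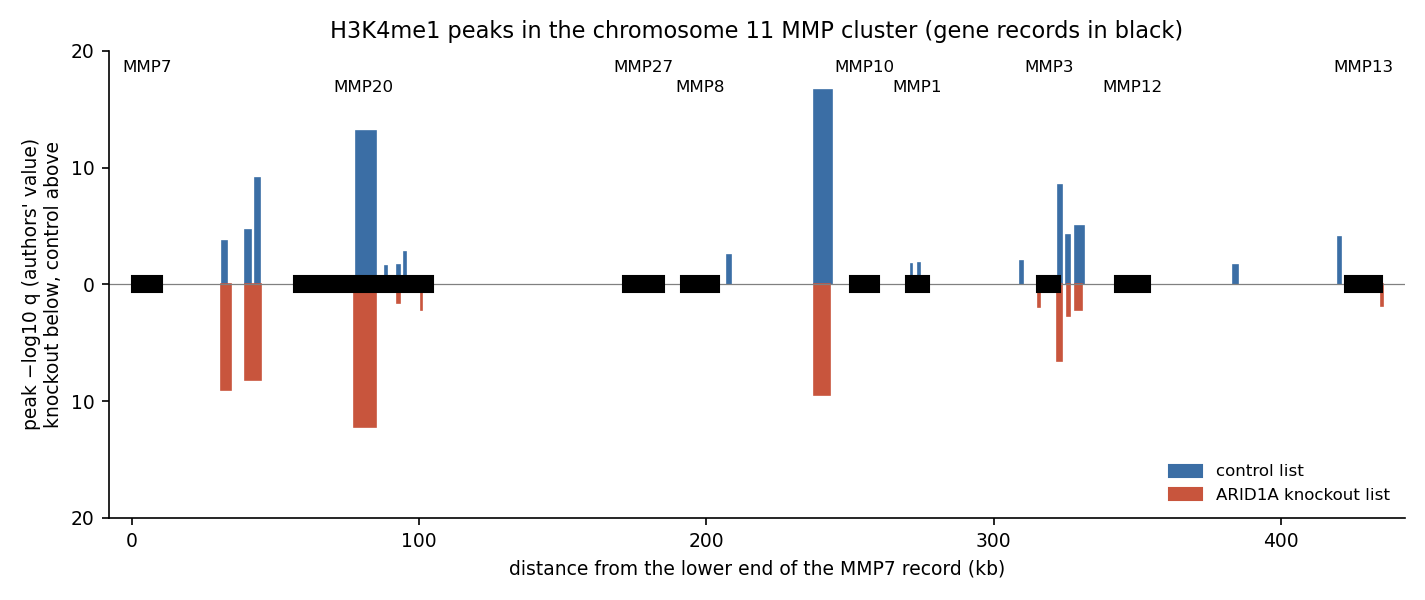
H3K4me1 peaks from MMP7 to MMP13 on chromosome 11, by distance from the lower end of the MMP7 record (kb); rectangles are peaks, their height the authors' −log10 q, control above and ARID1A knockout below the line, and black boxes are gene records. The strong peaks at MMP20, below MMP10 and at the start of MMP3 appear in both lists, and no peak lies on MMP7, MMP10, MMP27 or MMP12.

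Counted over the windows of all 10 genes, 10 of 31 control peaks (32.3%, exact 95% interval 16.7 to 51.4) and 5 of 26 knockout peaks (19.2%, 6.6 to 39.4) overlapped no peak of the opposite list. The intervals cover counting error over peaks only and treat peaks as independent, although several lie at the same gene. Over the whole lists the shares were 28.2% and 21.3%. Of the 10 control peaks, 3 lay at MMP24, 3 at MMP16, 2 at MMP1 and 1 each at MMP3 and MMP13. The strong MMP24 peak was the only single-list peak of either genotype to reach a −log10 q of 5. The next highest was 4.03 in the control list, at MMP13, and the highest in the knockout list was 2.3, near MMP9. With at least 50% of the peak overlapped as the condition, 9 knockout peaks had no partner (32.4% of the whole list). Peaks with a partner had a median −log10 q of 4.93 (control) and 6.58 (knockout), against 2.24 and 1.86 for those without.

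**Figure D4:**
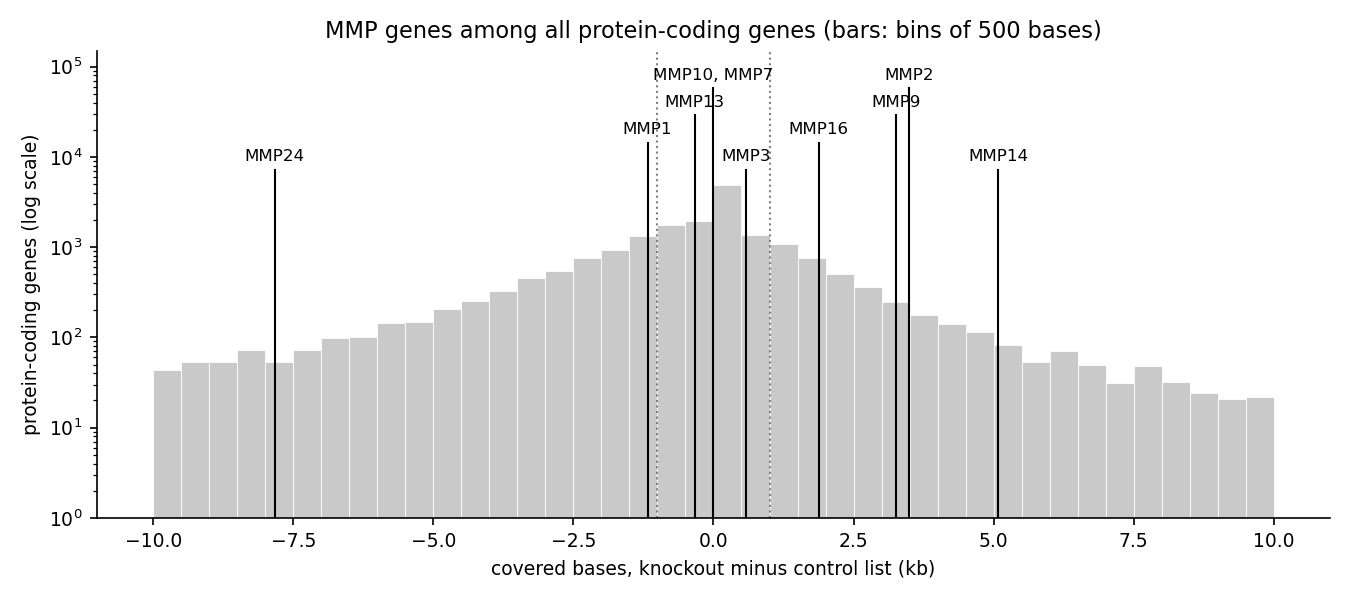
Difference in covered bases (knockout minus control, kb) for all protein-coding genes, in bins of 500 bases on a logarithmic count axis, with the 10 genes as black lines and the call limits of 1000 bases dotted; 338 genes below and 226 above the plotted range are not drawn. MMP24 lies far in the lower tail, MMP14, MMP2 and MMP9 in the upper one, and the other 6 nearer the middle.

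Of the other 13 genes of the family, 4 were higher in the knockout list (20.2% of all genes), 3 were lower (30.0%) and 6 differed by less than 1000 bases, with a median difference of 0 bases. With 50000 bases on either side 3 were higher (26.2% of all genes) and 7 lower (46.0%), with a median of -1148 bases. Windows of that width overlap at MMP8 and MMP27, which share a control peak and are both among the lower genes. The stromelysin-like gene MMP11 (13300 control and 15930 knockout bases) was the most covered of them. MMP28 (4000 and 6380), MMP26 (0 and 1948) and MMP17, a glycosylphosphatidylinositol-anchored member (2412 and 3572), were also higher. MMP15, a further membrane-type gene, had 4903 and 1525 bases, and MMP8 (1148 and 0) and MMP25 (4516 and 3444) were lower too. MMP20 had 9409 and 8978. The direction turned for MMP11 (-1766 bases) among peaks of fold 4 or more, for MMP28 (-6325 bases) and MMP20 (3163 bases) with 50000 bases on either side, and for MMP15 (117 bases) with 50000 peaks per list. In 4 of the 13 no peak of either list lay in the window.

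Of 5 inhibitor genes, 2 were lower in the knockout list (30.0% of all genes), 0 were higher (20.2%) and the median difference was -6 bases. With 50000 bases on either side 3 were higher (26.2% of all genes) and 2 lower (46.0%), with a median of 1384 bases. Among peaks of −log10 q 5 or more, and with 50000 peaks per list, 1 was higher (26.7% and 23.2% of all genes). TIMP2, whose product inhibits these enzymes and also takes part in pro-MMP2 activation at the cell surface, had 41278 control and 33731 knockout bases. RECK, a membrane-anchored inhibitor gene, had 12609 and 7718. TIMP1, TIMP3 and TIMP4 differed by less than 1000 bases. Of 8 genes of pro-enzyme activation and the plasminogen system, 3 were higher (20.2% of all genes), 1 was lower (30.0%) and 4 differed by less, with a median difference of 627 bases. Among peaks of −log10 q 5 or more the balance turned, with 2 higher (26.7% of all genes), 3 lower (17.7%) and a median of -369 bases. PLAU, the urokinase gene, had 8765 control and 12255 knockout bases. PLAT, the tissue plasminogen activator gene, had 14242 and 15788, and BSG, which encodes an inducer of metalloproteinases, 5885 and 7569. Around BSG the implied input background ratio was 1.387 times the genome-wide one, and its part in the difference was not tested. SERPINE2, which encodes an inhibitor of serine proteases, had 9377 control and 4483 knockout bases. With 50000 bases on either side PLAU (-2769 bases) and SERPINE2 (1176 bases) turned direction, as did PLAT (-2706 bases) among peaks of −log10 q 5 or more.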

How the data were processed

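H3K4me1 immunoprecipitates and inputs of control and ARID1A knockout MDA-MB-231 cells (4 groups of 2 samples) were represented by 1 deposited peak list per genotype. Chromatin was digested with micrococcal nuclease, per the labels' protocols. Per the submitters' processing notes, the authors used Bowtie2 2.3.5.1 and MACS2 2.2.6 with hg38; the sources used here do not state settings or how replicates were pooled. Per the file headers, the lists give position, pileup (a signal), fold enrichment (a ratio over the input) and −log10 q values; the lowest −log10 q was 1.01 in each. No counts were used, so depth is unknown.

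Of the peaks, 6 control and 3 knockout ones outside chromosomes 1 to 22 and X were dropped. Covered bases were computed with Python 3.11.15 and pandas 2.3.3, tested on simulated intervals, using RefSeq records of GRCh38.p14, whose coordinates are those of hg38. The table has no exons, so exonic, intronic and UTR positions are not stated; strands of genes outside the promoter table are background knowledge. A peak had a partner if it overlapped the opposite list by at least 1 base. The implied input background was (pileup + 1) / fold − 1, its median taken over peaks within 2500000 bases of the gene. All 10 genes were described; from other lists up to 4 genes per direction with at least 1000 bases of difference, and all genes of the chromosome 11 span, were named. Members and lists were chosen with earlier results of these data known. Of the activation list, 1 gene is not reported here. No p-value was computed.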

Additional observations from a re-analysis of the deposited data

How the results depend on the processing

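Alternatives were other peak cutoffs (−log10 q 5 or more, fold 4 or more), windows (the record alone, 10000 or 50000 bases on either side), call limits (500 and 2000 bases) and the same merging distance (1444 bases) and shortest peak (361 bases) in both lists. The −log10 q cutoff kept 23884 of 82994 control and 27571 of 73600 knockout peaks, so it did not cut both lists alike. Keeping the top 50000 peaks per list by −log10 q, and bases outside other protein-coding records, were added after seeing the data. No replicate could be left out, and no paired analysis was possible because each genotype had 1 pooled list.

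Of the 10 genes, 4 were higher. The number was 3 with the fold cutoff (14.5% of all genes), with 50000 bases on either side (26.2%) and at a call limit of 2000 bases (11%). It was 5 at a limit of 500 bases (27.0%) and 2 over the record alone (14.9%). It stayed at 4 with the −log10 q cutoff (26.7%) and with 10000 bases on either side (21.4%). The same merging distance (18.4%) and 50000 peaks per list (23.2%) also left it at 4. Outside other records it was 4 too, where the share of all genes was not computed. The number lower, 2, became 1 with the −log10 q cutoff and at a call limit of 2000 bases (MMP24 in both). It also became 1 with the fold cutoff (MMP3) and outside other records (MMP1). It became 3 with 10000 bases on either side (33.5% of all genes were lower there). With 50000 bases on either side it became 5 (46.0% of all genes), where the windows of MMP1, MMP3 and MMP10 overlap. Knockout peaks without a partner numbered 9, not 5, when an overlap of at least 50% of the peak was required. The chromosome 11 difference of -3503 bases turned to 7253 bases with the −log10 q cutoff and lay between -5523 and -1534 in the other settings. Over 80 values of single genes, 65 kept their side of the limit, 8 lost a call, 3 gained one and 4 reversed. Sign turns that made or lost a call were MMP3 with the fold cutoff (-1431 bases) and with 10000 (-1189) or 50000 bases (-2365) on either side, and MMP24 with the fold cutoff (456), where the wide control peak at its upper end (fold 3.91) drops out and its knockout partner (4.02) stays. Below the limit in both settings, MMP3 also turned sign with the same merging distance (-787) and with 50000 peaks per list (-159), MMP13 over the record alone (328) and MMP20 with either cutoff (414). MMP2 kept its call in all 8 settings. Among the other named genes, MMP11 (-1766) reversed with the fold cutoff, MMP15 (117) with 50000 peaks per list and PLAT (-2706) with the −log10 q cutoff. MMP28 (-6325), PLAU (-2769), SERPINE2 (1176) and MMP20 (3163) reversed with 50000 bases on either side, where neighbouring genes enter the window. The cause of the other reversals was not tested.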
